A study of Dicentrarchus labrax with 16 samples.

Results

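CpG-dense runs of the European sea bass (Dicentrarchus labrax) genome were studied in muscle and testis by reduced representation bisulfite sequencing (RRBS), in which DNA cut by MspI is treated with bisulfite, so that unmethylated cytosines are read as T and methylated cytosines as C. A cytosine was kept if all 6 libraries covered it with at least 10 reads and with no more than an upper limit set from each library's own coverage (626 to 1385 reads), and reads of both strands of a CpG were summed. CpGs up to 100 bp apart on a linkage group were joined into a run, and the runs described here held 15 or more CpGs. There were 1833 such runs with 37631 CpGs, of 89894 runs with 329245 CpGs on linkage groups and of 114946 runs with 475516 CpGs in all. The rule used coverage and position and no methylation value.

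The fish were wild adult males caught outside the reproductive season, with 3 libraries per tissue. Muscle and testis libraries of the same number were taken as the same fish. Neither tissue was treated, and no library held more than 1 fish. The study chose muscle as a tissue of mainly 1 cell type and testis as a mixture of somatic and germ cells. RNA-seq of 5 fish was not used here, because the expression tables give no positions. Positions are those of the dicLab v1.0c assembly, for which no sequence or annotation was used here, so the runs are named by linkage group, start and end, and their place relative to genes was not analysed.

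In vertebrates most CpGs of the genome are methylated, and methylated cytosines mutate to T over evolutionary time, so that CpGs are rare in most sequence. Stretches that stay unmethylated in the germ line keep many CpGs and often overlap promoters, whereas dense CpGs in repeats or gene bodies can be methylated. Methyl groups are copied to the new strand after replication by DNMT1, set de novo by enzymes of the DNMT3 family and removed by way of TET enzymes.

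The 6 libraries held between 46053158 and 114400947 cytosine calls in total, over 961700 to 1266961 cytosines. The median coverage of CpGs in the runs of 15 or more was 66, 194 and 65 reads in muscle of fish 1, 2 and 3 and 88, 146 and 110 reads in testis. The corresponding medians in runs of 5 to 14 CpGs were 61, 168 and 61 reads and 85, 134 and 109 reads. Of the CpGs in the dense runs, 17.0% were covered on both strands, against 12.8% in runs of 5 to 14. CpGs that read exactly 0 or 100% made up 65.0, 45.7 and 65.1% of these CpGs in muscle and 38.2, 31.2 and 32.4% in testis. Muscle of fish 2 was thus the deepest library, yet exact 0 or 100% values were more frequent in it than in each testis library. Reads were counted without molecular identifiers and are not independent molecules.

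A dense run held a median of 18 CpGs (interquartile range 16 to 23, maximum 86) over a median of 274 bp (86 to 1083 bp), which is 7.0 CpGs per 100 bp. Runs of 5 to 14 CpGs had a median of 6.67 CpGs per 100 bp, and the median gap between neighbouring CpGs was 10 bp in the dense runs and 12 bp in these. The upper quartile went the other way, with 8.57 CpGs per 100 bp in the dense runs and 9.68 in runs of 5 to 14. Dense run thus stands here for a run of many CpGs, not for clearly closer spacing. Runs of 15 to 19 CpGs numbered 1082 (59.0%), runs of 20 to 29 CpGs 591 and runs of 30 or more 160. All 24 linkage groups held some, from 46 on LG3 to 115 on LG7. Another dense run lay within 1 kb of 163 of them (8.89%) and within 10 kb of 358 (19.5%).

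The dense runs were mostly unmethylated, in both tissues alike. The mean methylation level over their CpGs was 24.6, 24.5 and 25.1% in muscle of fish 1, 2 and 3 and 25.4, 25.1 and 25.6% in testis. Runs of 5 to 14 CpGs had means of 52.0, 52.6 and 54.0% in muscle and 55.9, 55.9 and 56.5% in testis. All 6 libraries were thus lower in the dense runs, with differences of -30.9 to -27.4 percentage points and a mean of -29.4 points (exact sign-flip test over 6 libraries, two-sided p = 0.031, the smallest that 6 libraries allow). The libraries came from 3 fish, and with fish as units the same exact test gives p = 0.25, the smallest that 3 fish allow. Against runs of 2 to 4 CpGs the difference was -43.0 points.

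Runs with more CpGs were less methylated. The mean over runs was 69.6% ± 1.77 in muscle and 74.2% ± 0.47 in testis for isolated CpGs (SD, n = 3 fish here and below), and 57.6% ± 1.16 and 61.3% ± 0.39 for runs of 5 to 9 CpGs. It was 31.8% ± 0.41 and 32.8% ± 0.29 for runs of 15 to 19, 18.9% ± 0.30 and 19.1% ± 0.32 for runs of 20 to 29, and 17.7% ± 0.10 and 18.3% ± 0.22 for runs of 30 or more. The last of these classes thus differed little from the class before it. There was no jump at the limit of the rule: the 374 runs of exactly 14 CpGs had 34.8% ± 0.39 in muscle and 36.2% ± 0.27 in testis, and the 319 runs of exactly 15 had 31.9% ± 0.54 and 33.1% ± 0.29.

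**Figure D1:**
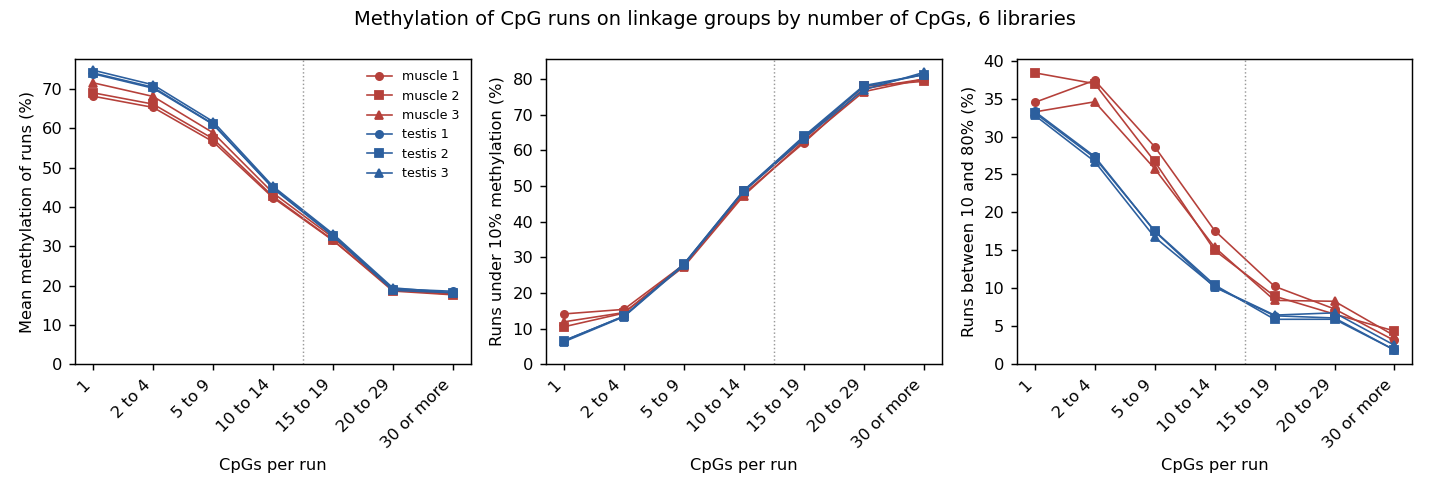
Mean methylation of runs (left), share of runs under 10% (middle) and share of runs between 10 and 80% (right), each in percent, against the number of CpGs per run on linkage groups; each line is 1 of 6 libraries and the dotted line marks the limit of 15 CpGs. Mean methylation fell from 69.6% (muscle) and 74.2% (testis) for single CpGs to 17.7% and 18.3% for runs of 30 or more, and the tissues drew together.

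Among the dense runs, those of higher density were more often under 10% methylation. The 613 runs of lowest density (2.95 to 6.25 CpGs per 100 bp) were under 10% methylation in 64.8% ± 0.52 of cases in muscle and 65.6% ± 0.43 in testis. For the 611 runs of highest density (7.98 to 18.6 CpGs per 100 bp) these shares were 73.2% ± 0.28 and 73.5% ± 0.43. The order was the same in every library.

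The runs fell into a low and a high class with few between. In muscle 68.8% ± 0.44 of the dense runs were under 10% and 23.0% ± 0.38 over 80%, and in testis 69.7% ± 0.36 and 24.4% ± 0.055. The share over 80% did not overlap between tissues (exact permutation test, two-sided p = 0.10, the smallest that 3 against 3 allow), whereas the share under 10% did (p = 0.20). Runs between these limits made up 8.15% ± 0.46 in muscle and 5.89% ± 0.33 in testis. Among runs of 5 to 14 CpGs the shares between the limits were 25.2% ± 1.44 and 16.1% ± 0.40.

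**Figure D2:**
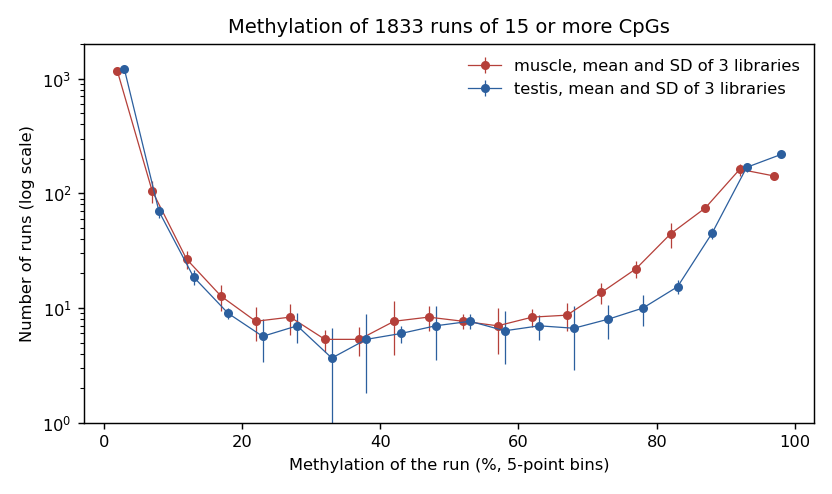
Number of the 1833 dense runs in each 5-point bin of methylation, on a log scale; points and bars are the mean and SD of 3 libraries per tissue, muscle in red and testis in blue. Most runs lie in the lowest bins, a smaller group lies above 80%, and the bins between hold few runs in either tissue.

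Counted over all libraries at once, 1211 runs (66.1%) were under 10% in each of the 6 libraries, 368 (20.1%) were over 80% in each, 21 (1.15%) were between 30 and 70% in each, and 233 (12.7%) fell in none of these classes. Among runs of 5 to 14 CpGs the shares were 28.1%, 30.6%, 1.52% and 39.8%. The mean level over the low runs was 2.13, 2.0 and 2.22% in muscle and 2.31, 2.07 and 2.41% in testis, so the tissues overlapped. The mean over the high runs was 92.7, 92.9 and 93.0% in muscle and 94.9, 94.7 and 94.9% in testis, so each testis library was above each muscle library. Low runs had a median of 19 CpGs and high runs a median of 17. The share of low runs ranged from 57.9% on LG2 to 72.4% on LG16, and the share of high runs from 7.58% on LG15 to 30.4% on LG3.

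The longest runs belonged to both classes. The run with the most CpGs (LG10:23684523-23685374, 86 CpGs over 852 bp) had methylation levels of 1.34, 1.73 and 2.37% in muscle and 2.14, 2.51 and 2.89% in testis. The run next in size (LG5:8086920-8088002, 69 CpGs over 1083 bp) had 90.2, 90.1 and 90.5% in muscle and 91.8, 91.7 and 93.7% in testis. Both were alike in all fish, at opposite ends of the scale. The run after these (LG12:5221315-5222358, 65 CpGs) had 1.47, 2.70 and 3.79% in muscle and 2.77, 2.56 and 2.78% in testis. The second largest high run (LG3:9811547-9812328, 44 CpGs) had between 81.9 and 86.7% in the 6 libraries.

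Some high runs had CpGs at a fixed distance from each other. In the LG3 run of 44 CpGs, 19 pairs of CpGs lay exactly 21 bp apart. Over all dense runs, the most frequent distance made a median of 20 pairs per 100 CpGs. This median was also 20 in the high runs and 20 in the low runs. In 7 runs, the LG3 run of 44 CpGs not among them, the most frequent distance made more than 50. Of these 7 runs, 5 were over 80% in every library and 0 were under 10%. The 3 with the most pairs per CpG, chosen after their values were seen, were LG3:10170133-10170734 (25 CpGs, 19 pairs 87 bp apart, 86.0 to 90.7%), LG18-21:174901-175245 (26 CpGs, 16 pairs 29 bp apart, 89.4 to 94.1%) and LG9:2408758-2409353 (26 CpGs, 16 pairs 14 bp apart, 73.8 to 81.7%).

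Within a run the CpGs had similar levels. Neighbouring CpGs in the dense runs differed by 5.95, 4.72 and 5.88 points on average in muscle and by 4.01, 3.66 and 3.90 points in testis, so the tissues did not overlap (exact permutation test, p = 0.10, the smallest possible). CpGs of runs of 5 to 14 differed by 9.89 ± 1.17 points in muscle and 6.13 ± 0.17 in testis. The difference grew with distance: it was 4.79 points in muscle and 3.40 in testis for CpGs 1 to 10 bp apart, and 7.91 and 5.34 points for CpGs 31 to 100 bp apart. In the low runs neighbouring CpGs differed by 3.22 ± 0.39 and 2.71 ± 0.23 points, and in the high runs by 8.39 ± 0.73 and 5.29 ± 0.26. The share of CpGs at exactly 0 or 100%, given above, was also higher in muscle, and its part in the larger muscle differences was not tested.

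The CpGs at the ends of a run were slightly more methylated than those in the middle. The first 2 and last 2 CpGs were compared with those in the central part of the run, split evenly in 3. They were higher by 1.16, 0.81 and 1.35 points in muscle and 1.11, 0.70 and 1.03 points in testis, on average 1.03 points. An exact sign-flip test over 6 libraries gave p = 0.031, and with 3 fish as units p = 0.25, in each case the smallest possible. When more CpGs were taken as ends, namely every CpG outside the central part of a run split evenly in 3, the difference was 0.28 points. It had opposite signs in the main classes: the ends were higher by 1.48 points in the low runs and by -0.56 points in the high runs, with the same sign in each library. The ends of runs of 5 to 14 CpGs were higher by 0.31 points.

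The low runs lay in methylated surroundings. Around them, CpGs 101 to 250 bp from the edge of a run had a mean level of 3.94% ± 0.48 in muscle and 3.71% ± 0.19 in testis, and those 251 to 500 bp away had 6.98% ± 0.62 and 6.90% ± 0.32. It was 20.1% ± 1.84 and 21.1% ± 0.48 at 501 to 1000 bp, and 47.3% ± 1.20 and 49.6% ± 0.48 at 1001 to 2000 bp. At 2001 to 5000 bp it was 62.4% ± 1.26 and 65.8% ± 0.31, and it was no higher at 5001 to 10000 bp in muscle. These values came from 518, 441, 395, 394, 705 and 881 of the 1211 low runs, in order of distance, namely those with covered CpGs there. Where nearby CpGs were covered, the low state thus reached beyond the run itself in both tissues. Muscle and testis libraries overlapped up to 1000 bp from the run and did not overlap beyond, where testis was higher.

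Around the high runs the level fell with distance. Covered CpGs lay around 143 of the 368 high runs at 101 to 250 bp, 116 at 501 to 1000 bp and 311 at 5001 to 10000 bp. CpGs at 101 to 250 bp had 88.4% ± 1.40 in muscle and 91.4% ± 0.40 in testis, CpGs at 501 to 1000 bp had 83.7% ± 0.62 and 85.9% ± 0.66, and CpGs at 5001 to 10000 bp had 65.4% ± 2.07 and 69.4% ± 0.43. At this distance the level around the low runs was 61.9% ± 2.12 and 65.9% ± 0.45, so the surroundings of high and low runs were far closer than the runs themselves. Of 83 pairs of neighbouring dense runs within 1 kb, 72 had both runs in the low or the high class, and in 70 of these both were in the same class.

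**Figure D3:**
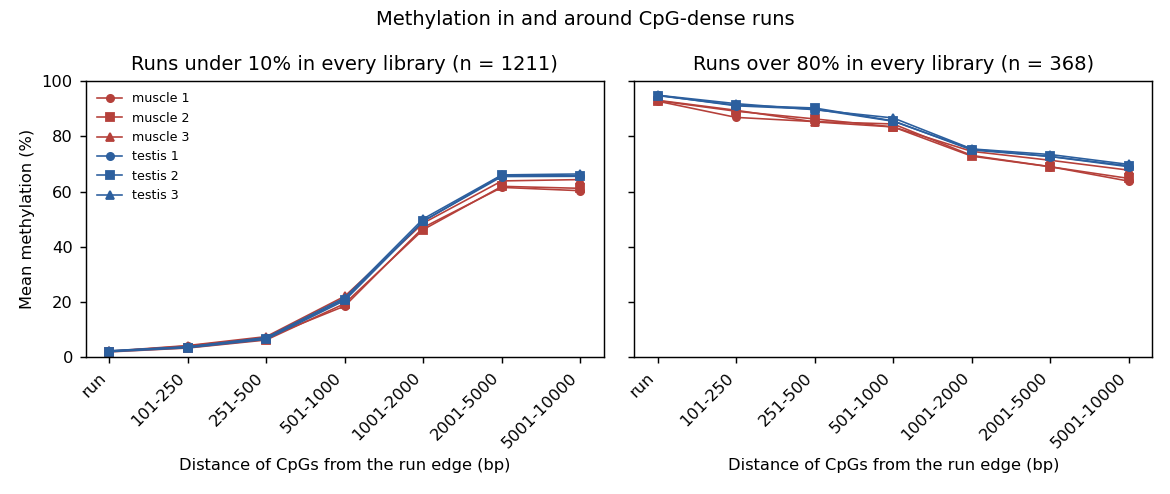
Mean methylation (%) of CpGs in dense runs and at increasing distance from the run edge (bp), for the 1211 runs under 10% in every library (left) and the 368 runs over 80% in every library (right); each line is 1 library. Levels rise around low runs from 2.12% (muscle) and 2.26% (testis) to 62.4% and 65.8% at 2001 to 5000 bp and fall around high runs from 92.9% and 94.8% to 69.8% and 72.9%. Values inside the runs are means over runs. Each distance outside the runs uses only the runs with covered CpGs there, 394 to 881 low and 107 to 311 high runs.

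Muscle and testis were compared next, to ask where the dense runs differ between a tissue of low and a tissue of high cellular diversity. Over all their CpGs the tissues differed little. The mean was 24.7% ± 0.29 in muscle and 25.4% ± 0.25 in testis, a difference of 0.65 points. An exact permutation test that takes the libraries as unpaired gave a two-sided p = 0.10, the smallest possible. Within each fish testis was higher, by 0.78, 0.61 and 0.56 points, and this p does not test these paired differences. Testis was higher by 3.85, 3.25 and 2.50 points in runs of 5 to 14 CpGs of the 3 fish. The difference between tissues was thus smaller in the dense runs in each fish, with contrasts of -3.08, -2.64 and -1.94 points (mean -2.55 ± 0.58), which 3 fish cannot test below p = 0.25 (exact sign-flip test).

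The overall difference depended on how reads were weighted. When all reads of the dense runs were pooled instead of averaging CpGs, muscle had 24.8% and testis 30.02%, a difference of 5.17 points. In testis, CpGs over 80% had more reads than CpGs under 10%: 129 against 103.1, 210 against 166 and 170 against 127 reads on average in fish 1, 2 and 3. In muscle the corresponding means were 83.5 and 84.5, 226 and 223, and 83.1 and 78.9 reads. With reads pooled, the contrast between the dense runs and runs of 5 to 14 was -1.34 points.

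Run by run, the tissues were close. The difference between the tissue means of a run was within 1 point in 1091 runs (59.5%) and within 5 points in 1668 (91.0%), against 64.7% within 5 points in runs of 5 to 14. Runs under 10% in every library, which have little room to differ, made up 66.1% of the dense runs and 28.1% of runs of 5 to 14. These shares were not computed without them. The median difference was 0.38 points, testis higher. In 21 runs testis was higher by more than 15 points and in 10 runs muscle was. These counts were not made for other runs, so no share can be set beside them. Pearson's correlation across the 1833 runs, given as a description, was 0.995 to 0.996 between testis libraries, 0.985 to 0.992 between muscle libraries, 0.99 to 0.994 between muscle and testis of the same fish and 0.985 to 0.991 between tissues of different fish.

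**Figure D4:**
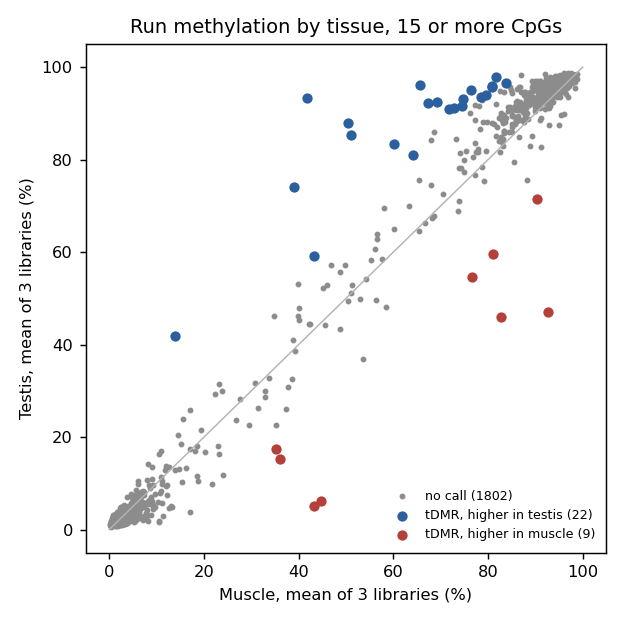
Mean methylation (%) of each of the 1833 dense runs in testis against muscle, each the mean of 3 libraries; the grey line is equality, blue points are the 22 tDMRs higher in testis and red points the 9 higher in muscle. Runs cluster in the low and high corners, and most testis-higher tDMRs lie near the top, with testis levels up to 97.8%.

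Differentially methylated cytosines (DMCs) were called by logistic regression on tissue, with a Benjamini-Hochberg adjusted p under 0.01 over 475516 CpGs and a difference over 15 points. In the dense runs 919 CpGs (2.44%) were hyper-methylated in testis, against 11.7% of all CpGs tested, and 608 (1.62%) in muscle, against 4.26%. The shares in runs of 5 to 14 CpGs were 11.8 and 3.96%. Both directions were therefore rarer in the dense runs than over all CpGs, and testis-higher DMCs made up less of the total. Runs under 10% in every library made up 66.1% of the dense runs and 28.1% of runs of 5 to 14. DMC shares were not computed without them. The logistic regression treats reads as independent. A quasi-binomial test, which estimates the spread between libraries at each CpG, called 0 DMCs in the dense runs and 0 of all CpGs. At an unadjusted p under 0.05 and a difference over 15 points, it found 310 testis-higher CpGs in the dense runs (0.824%, against 4.13% of all CpGs tested) and 186 muscle-higher ones (0.494%, against 1.82%).

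Tissue-specific differentially methylated regions (tDMRs) were runs of 5 or more CpGs with at least 3 DMCs of 1 direction and none of the other, a mean difference over 15 points in scaled, pooled reads, and a combined adjusted p under 0.001 over 31456 runs. Of the dense runs 22 (1.20%) were hyper-methylated in testis, against 6.93% of all runs tested, and 9 (0.491%) in muscle, against 2.04%. Among runs of 5 to 14 CpGs 8.90 and 2.77% were called. With more CpGs in a run, 3 DMCs are easier to reach but the absence of any DMC of the other direction is harder. Of the called dense runs, 17 of 22 and 6 of 9 held fewer than 20 CpGs, as did 59.0% of all dense runs. How far the rule itself depends on the number of CpGs was not tested. All 22 and 9 were among the 622 dense runs that were not under 10% in every library. This follows from the limits, since runs under 10% in every library have almost no room for a difference over 15 points. Of these 622 runs 3.54 and 1.45% were called, against 12.4 and 3.85% of 14812 such runs of 5 to 14. Without the low runs the contrast was thus smaller as a ratio but slightly larger in points, in both directions.

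Of the 22 testis-higher tDMRs, 20 had the same direction in all 3 fish and 18 had no overlap between muscle and testis libraries. All 9 muscle-higher tDMRs had the same direction in the 3 fish and did not overlap. Over all dense runs, muscle and testis libraries had no overlap in 297 with testis higher (16.2%, against 22.4% of all runs tested) and in 66 with muscle higher (3.60%, against 4.35%). Without runs under 10% in every library, the shares were 22.5 and 5.31%, against 25.4 and 6.76% in runs of 5 to 14. The median difference was 19.3 points for the testis-higher and -22.8 points for the muscle-higher tDMRs. In 19 of the 22 testis-higher tDMRs the testis mean was over 80%, and in 0 of them was the muscle mean under 10%. Of the 9 muscle-higher tDMRs, 4 had a muscle mean over 80% and 2 had a testis mean under 10%.

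A test over libraries that does not take reads as replicates called fewer runs. With limma on the log2 ratio of methylated to unmethylated reads per run, 7 dense runs were higher in testis (adjusted p under 0.05; 0.382%, against 1.54% of all runs tested) and 3 in muscle (0.164%, against 0.331%), and all 10 were also tDMRs. At an unadjusted p under 0.05, limma found 144 testis-higher dense runs (7.86%, against 16.0%) and 35 muscle-higher ones (1.91%, against 3.31%). Without runs under 10% in every library, the shares were 14.6 and 3.86%, against 21.1 and 5.50% in runs of 5 to 14. With fish as a block limma called 0 dense runs and 0 of all runs, with a smallest adjusted p of 0.156. At an unadjusted p under 0.05 the block left 136 testis-higher dense runs (7.42%, against 15.4% of all runs tested) and 33 muscle-higher ones (1.80%, against 3.35%). Without muscle of fish 3 limma called 17 testis-higher (0.927%, against 3.13% of all runs tested) and 5 muscle-higher dense runs (0.273%, against 0.715%). Without muscle of fish 2 it called 4 of each direction (0.218%, against 1.27 and 0.858% of all runs tested). Without muscle of fish 1, any testis library or any whole fish, limma called 0 of all runs, the dense ones included. At an unadjusted p under 0.05, it then found between 83 and 158 testis-higher dense runs (4.53 to 8.62%, against 10.8 to 16.8% of all runs). Muscle-higher ones numbered between 16 and 36 (0.873 to 1.96%, against 2.03 to 4.32%).

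The run with the largest difference was on LG17 (16062371 to 16062597, 15 CpGs over 227 bp). Its methylation was 45.7, 31.5 and 48.3% in muscle of fish 1, 2 and 3 and 90.8, 95.1 and 94.3% in testis. All testis libraries were far above all muscle libraries, by 51.5 points on average, and 14 of the 15 CpGs were DMCs (limma, log2 odds ratio 4.42 ± 0.44 SE, Benjamini-Hochberg adjusted p = 0.035). In muscle the level changed along the run: the CpG 84 bp from the start had 13.1, 4.88 and 27.0%, and the CpG 203 bp from the start had 76.4, 44.0 and 64.5%. In testis the same CpGs had 87.4 to 99.4% and 93.7 to 97.0%.

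On LG4 (1886189 to 1886475, 16 CpGs) muscle had 33.2, 40.5 and 43.3% and testis 74.1, 75.1 and 73.0%, with 15 DMCs and no overlap between tissues (limma log2 odds ratio 2.1 ± 0.36 SE, adjusted p = 0.0498). Testis was here only partly methylated, in contrast to the LG17 run. On LG2 (22394479 to 22394774, 23 CpGs) muscle had 61.6, 61.3 and 74.1% and testis 98.3, 95.2 and 94.7%, with 22 DMCs (limma adjusted p = 0.044).

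On LG24 (1704694 to 1704861, 15 CpGs) muscle had 27.4, 56.3 and 67.4% and testis 90.4, 85.1 and 88.2%. All 15 CpGs were DMCs and the tissues did not overlap. Muscle had an SD of 20.6 points between fish, and limma gave a log2 odds ratio of 2.76 ± 0.52 SE and an adjusted p of 0.059. The first CpG of this run had 4.92, 54.4 and 90.2% in muscle and 93.5, 81.4 and 85.4% in testis. On LG13 (1679839 to 1680023, 16 CpGs) muscle had 37.5, 71.8 and 44.1% and testis 81.6, 87.6 and 86.5% (limma adjusted p = 0.097). The testis libraries were again close together and the muscle libraries were not.

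Among the muscle-higher tDMRs the largest difference was on LG7 (11639101 to 11639532, 15 CpGs over 432 bp). Muscle had 90.1, 91.0 and 96.7% and testis 43.0, 46.2 and 51.9%. All muscle libraries were above all testis libraries, by 45.6 points on average, and 14 CpGs were DMCs (limma log2 odds ratio -4.04 ± 0.63 SE, adjusted p = 0.044). In bulk tissue a level near the middle of the scale cannot tell a mixture of methylated and unmethylated cells from molecules methylated in part.

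A pair of runs was nearly unmethylated in testis. On LG11 (18070203 to 18070423, 17 CpGs) muscle had 47.0, 40.5 and 46.4% and testis 4.07, 6.59 and 7.91%, with 16 DMCs (limma log2 odds ratio -3.54 ± 0.39 SE, adjusted p = 0.035). On LG15 (24887743 to 24887942, 15 CpGs) muscle had 49.9, 26.5 and 53.1% and testis 4.54, 4.01 and 6.62%, with all 15 CpGs DMCs (limma adjusted p = 0.043). In both runs every testis library was below 10% and every muscle library above 25%.

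On LG16 (18937936 to 18938186, 15 CpGs) muscle had 85.7, 77.4 and 85.3% and testis 48.0, 37.4 and 52.3% (limma adjusted p = 0.057). On LG15 (17696726 to 17697206, 28 CpGs) muscle had 66.6, 78.2 and 84.9% and testis 51.0, 58.0 and 54.6% (limma adjusted p = 0.13). The tissues did not overlap in either run, but limma did not call them.

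**Figure D5:**
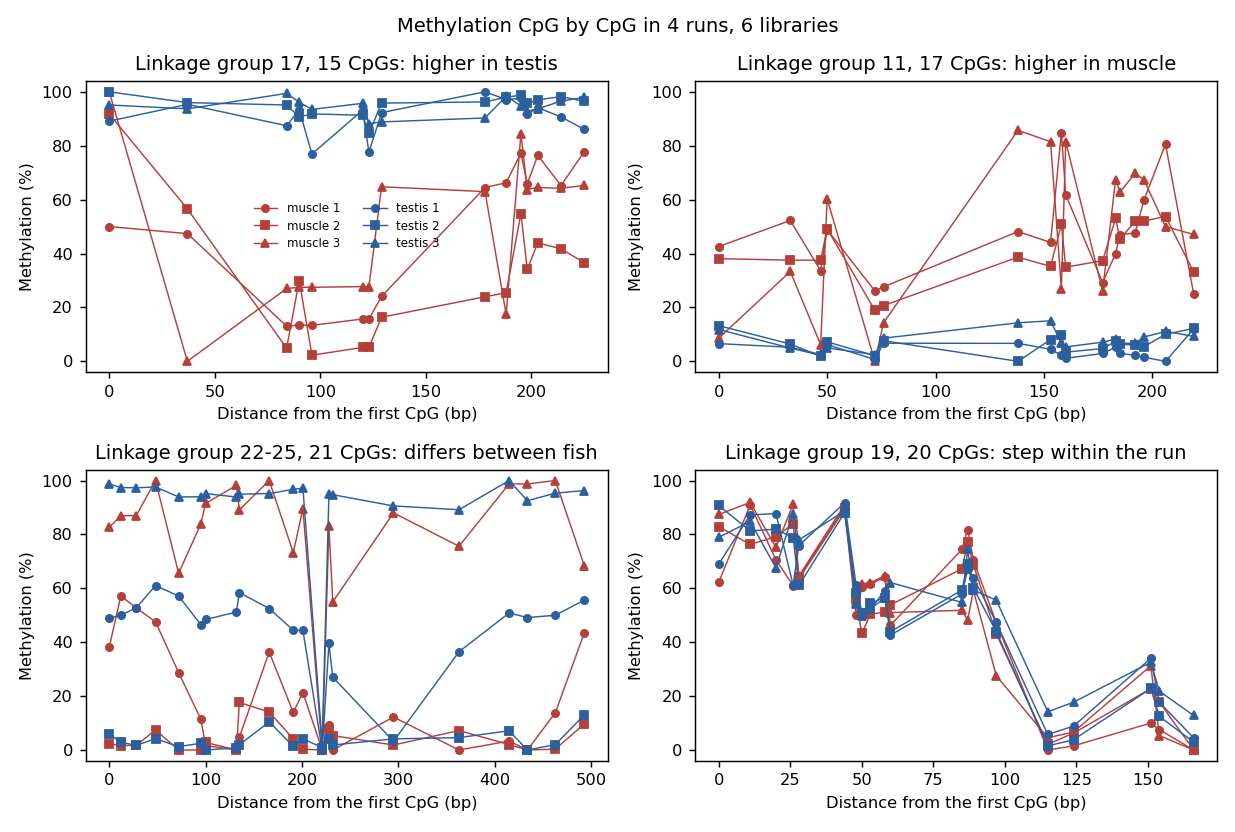
Methylation (%) of each CpG against its distance from the first CpG of the run (bp) in 4 dense runs, with 1 line per library (red, muscle; blue, testis; circles, squares and triangles, fish 1, 2 and 3). Testis lies above muscle over nearly the whole LG17 run and below it over nearly the whole LG11 run, the lines separate by fish in the LG22-25 run, and all 6 lines step down together in the LG19 run.

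Fish differed less in the dense runs than in shorter runs. The SD over the 3 fish had a median of 1.17 points in muscle and 0.54 in testis, against 3.90 and 1.36 in runs of 5 to 14 CpGs. It was larger in muscle in 78.8% of the dense runs and, much alike, in 79.6% of runs of 5 to 14. Muscle of fish 1 and 3 had the lowest median coverage, and the part of coverage in this was not tested. For the 91 dense runs with a mean between 20 and 80% the median SD was 9.05 points in muscle and 3.72 in testis, against 11.6 and 4.37 points in 3991 such runs of 5 to 14.

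A few dense runs set 1 fish apart in both tissues. The range over fish exceeded 20 points in 59 runs in muscle (3.22%), in 21 in testis (1.15%) and in 14 in both (0.764%). Among runs of 5 to 14 CpGs these shares were 18.3, 2.86 and 2.03%. In 13 of the 14 the fish farthest from the others was the same in muscle and testis: fish 1 in 3 runs, fish 2 in 3 and fish 3 in 7. Among runs of 5 to 14 CpGs the same fish stood apart in 256 of 418. Over all dense runs, how far each library lay from the mean of its tissue correlated between muscle and testis of the same fish at r = 0.494, 0.573 and 0.601. Between different fish r was -0.394 to -0.062. Such deviations cancel within a tissue, so positive values within fish force negative ones between fish. In runs of 5 to 14 CpGs the values within fish were 0.217, 0.287 and 0.253. That libraries of equal number are 1 fish is not in the labels and rests on such correlations over all CpGs, the dense runs included. The agreement between tissues given here is therefore no separate test of that pairing.

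The clearest of these was on LG22-25 (17821149 to 17821643, 21 CpGs over 495 bp), with 18.9, 4.11 and 81.7% in muscle of fish 1, 2 and 3 and 44.2, 3.57 and 90.8% in testis. The run was thus methylated in fish 3, unmethylated in fish 2 and between these in fish 1, in the same order in both tissues. The rule that named this run and the LG13 run below required the same order of fish in both tissues. The CpG 221 bp from the start was at or below 2.27% in all 6 libraries, also in fish 3, whose CpG 20 bp before it had 89.6% in muscle and 97.2% in testis. On LG13 (1264596 to 1265161, 42 CpGs) muscle had 98.1, 95.1 and 29.96% and testis 97.5, 95.7 and 41.4%. Fish 3 was the low one in both tissues. On LG4 (25110653 to 25110913, 18 CpGs) fish 1 had 53.0% in muscle and 51.2% in testis, whereas fish 2 and 3 had 1.30 to 1.63%; this run was chosen after its values were seen.

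Levels between 30 and 70% in all 6 libraries were found in 21 dense runs. Each CpG was here given 1 level per tissue, combined over the 3 fish, which can lie in the middle where fish differ. By these levels 70.9% of CpGs of the 21 runs in muscle and 61.1% in testis lay between 30 and 70%. In all dense runs the shares were 4.23 and 2.87% of CpGs. At least 1 CpG under 10% and at least 1 over 80% were found in 5 of the 21 in muscle and 6 in testis, and in 21 and 17 of all 1833 dense runs. The largest of the 21 was on LG2 (20353447 to 20353952, 27 CpGs), with 44.3, 39.5 and 67.2% in muscle and 45.2, 51.7 and 51.3% in testis. The next (LG8, 22146466 to 22146672, 25 CpGs) had 60.7, 53.2 and 32.6% in muscle and 47.7, 40.1 and 42.4% in testis. Muscle of fish 3 lay apart from the other muscle libraries in both, upward in the former and downward in the latter.

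Another pair of runs held a step. On LG19 (3339347 to 3339514, 20 CpGs over 168 bp) the run means were 50.6, 51.8 and 51.5% in muscle and 52.3, 51.1 and 55.2% in testis, as close between tissues as between fish. The CpGs at the start had 69.7, 76.1 and 79.4% (mean of the first 7 CpGs) in muscle and 76.3, 77.1 and 77.1% in testis, and the last 6 CpGs had 11.1, 15.3 and 12.6% and 19.7, 14.6 and 25.8%. Between the CpGs 97 and 115 bp from the start the level dropped from 47.3, 43.1 and 27.6% to 0, 2.13 and 4.55% in muscle and from 47.3, 43.9 and 55.6% to 5.77, 1.51 and 14.2% in testis. On LG11 (22892524 to 22892762, 15 CpGs) the level rose instead between the first and last 5 CpGs, from 16.2, 11.1 and 23.5% to 81.3, 92.2 and 61.8% in muscle and from 9.91, 14.3 and 26.5% to 70.6, 94.9 and 81.7% in testis. Both steps had the same direction in each library, which the rule that named these runs required.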

How the data were processed

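RRBS libraries of muscle and testis of 3 sea bass were analysed. The authors trimmed reads with Trimmomatic, aligned them with BSMAP 2.90 to dicLab v1.0c and called methylation with its methratio script. The authors deposited a read count (coverage) for each CpG cytosine on each strand, and the percent of these reads with C and with T. Cytosines with as little as 1 read are in these files, so the minimum coverage of 10 and the upper limit were applied here. Positions on the reverse strand were moved by 1 base and strands summed.

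Coverage was scaled to the largest median for the logistic likelihood ratio test, which followed the study's methods, with Benjamini-Hochberg adjustment. The study used edmr for regions, and the tDMR rule given in the report stood in its place. limma 3.58.1 in R 4.3.3 was run per run of 5 or more CpGs on log2 ratios with 0.5 added to each count, and the rest in Python 3.11.15 with numpy 2.4.6, pandas 2.3.3 and scipy 1.17.1. The tests were checked on simulated data. Scaling raised the counts of every library below the largest median, as if it had held more reads. The p-values of the logistic test thus understate counting error and cover no other error.

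Libraries with the same number were taken as 1 fish. The labels number the libraries of each tissue, and the methods do not state that equal numbers are 1 fish. Over all CpGs, deviations from the tissue mean correlated at 0.174, 0.214 and 0.192 for equal numbers and at -0.117 to -0.082 for others. Deviations cancel within a tissue, so positive values force negative ones elsewhere. The pairing by number thus rests on the positive values. Fish as a block was an alternative, as were other coverage limits, joins, class limits, difference limits, limma settings and leaving out each library or fish.

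Runs were named by rule: the 3 with the most CpGs, the 5 largest differences in either direction among tDMRs alike in all 3 fish, the 2 largest runs of the low, high and middle classes, the 2 that differed most between fish in both tissues, and the 2 with the largest step. The runs that differed between fish had to have the fish in the same order in both tissues. The runs with a step had to have a step of the same sign in every library. The members, lists and rules were chosen with earlier results of these data known. Tables of expression, including the authors' deposited fold changes and p-values, were not used.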

Additional observations from a re-analysis of the deposited data

How the results depend on the processing

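Each of 21 results was recomputed under the alternatives set out beforehand, 291 values in all. Only signed differences, and shares compared between tissues, could change direction, and none did. The other results are counts or unsigned values, for which no change of direction was possible. Of the 291 values, 63 in 12 results were classed as moved from the main value. Another 20, in 2 results, kept their sign but no longer had an exact p under 0.05. With fish as a replicate block limma called 0 dense runs in either direction in place of 7 and 3. The block left 905 and 597 DMCs (2.4 and 1.59%, against 11.6 and 4.19% of all CpGs). It left 22 and 9 tDMRs (1.2 and 0.491%, against 6.9 and 2.04% of runs). A coverage minimum of 20 reads left 1157 dense runs. They held 417 testis-higher and 261 muscle-higher DMCs (1.82 and 1.14%, against 11.2 and 3.86% of all CpGs at this minimum). There were 11 and 3 tDMRs (0.951 and 0.259%, against 6.38 and 1.90% of runs). limma called 4 and 0 runs (0.346 and 0%, against 1.73 and 0.413%). At an unadjusted p under 0.05 it found 77 and 18 (6.66 and 1.56%, against 16.2 and 3.15%). Joining CpGs only up to 50 bp left 1091 dense runs. They held 402 and 252 DMCs (1.90 and 1.19%, against 11.7 and 4.26%) and gave 9 and 4 tDMRs (0.825 and 0.367%, against 5.86 and 1.63%). limma called 1 and 0 runs (0.0917 and 0%, against 0.713 and 0.165%). Unadjusted, it found 67 and 21 (6.14 and 1.92%, against 14.4 and 3.06%). A difference over 25 points left 319 and 212 DMCs (0.848 and 0.563%, against 5.60 and 2.05%) and 6 and 4 tDMRs (0.327 and 0.218%, against 2.87 and 0.931%). The quasi-binomial F test left 0 and 0 DMCs, as over all CpGs. Without coverage scaling there were 829 and 517 DMCs (2.2 and 1.37%, against 11.2 and 3.82% of all CpGs). This setting gave 20 and 9 tDMRs (1.09 and 0.491%, against 7.19 and 1.9% of runs). For testis-higher runs limma called 19 with an offset of 5 (1.04%, against 3.31% of all runs), 17 with a trend (0.927%, against 3.64%) and 13 on the percent scale (0.709%, against 2.71%), where it called 5 muscle-higher runs (0.273%, against 0.769%).

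Leaving out a library or a fish gave 955 to 1310 testis-higher and 635 to 1200 muscle-higher DMCs (2.54 to 3.48% and 1.69 to 3.19%, against 11.5 to 13.4% and 4.25 to 5.65% of all CpGs), the highest values without muscle of fish 2, the deepest muscle library, and without all of fish 2 muscle-higher DMCs numbered 1089. tDMRs numbered 16 to 25 and 9 to 11 (0.873 to 1.36% and 0.491 to 0.6%, against 6.28 to 8.18% and 1.92 to 2.29% of all runs). limma called 0 to 17 and 0 to 5 dense runs (0 to 0.927% and 0 to 0.273%, against 0 to 3.13% and 0 to 0.858% of all runs). The difference of the dense runs from runs of 5 to 14 was -29.8 to -29.1 points and that of ends from the middle 0.94 to 1.16 points. Their exact tests then cannot pass 0.05, as with 3 fish as units (-29.4 and 1.03 points, p = 0.25).

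The minimum of 10 reads gives steps of 10 points at a single CpG, and muscle of fish 1 and 3 had medians of 66 and 65 reads against 88 or more in the other libraries. A run of 15 or more CpGs needs coverage in every library, so dense stretches that MspI fragments or reads did not reach are not among the runs. With 3 fish no exact test between tissues can go below 0.10.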

Other observations

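Runs of 15 or more CpGs on sequence not placed on a linkage group were mostly methylated. There were 2009 of them, 8.02% of the 25052 unplaced runs, against 2.04% of runs on linkage groups. Their share over 80% methylation was 82.2, 82.2 and 82.4% in muscle of fish 1, 2 and 3 and 83.2, 82.9 and 83.2% in testis, and their share under 10% was 13.4 to 13.7% in the 6 libraries. The 1833 runs on linkage groups had 23.0% ± 0.38 over 80% in muscle and 24.4% ± 0.055 in testis. What this sequence holds was not analysed here, because no sequence of the assembly was used.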
